A study of Mus musculus with 4 samples.

Results

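Accessible chromatin was examined at 8 genes of the interferon regulatory factor family (Irf1, Irf2, Irf3, Irf4, Irf5, Irf7, Irf8 and Irf9) in cultured natural killer (NK) cells of the mouse. A region was taken as belonging to the family when one of these genes was the nearest protein-coding gene, with distance taken to the span of the gene and ties settled by the nearer end. This gave 99 of the 91266 accessible regions of the series. ATAC-seq, in which a transposase inserts adapters into open chromatin, had been performed on wild-type C57BL/6 splenic NK cells cultured for 72 h in a high dose (2 samples) or a low dose (2 samples) of interleukin-15 (IL-15), the cytokine that keeps NK cells alive. Concentrations, the age of the mice and the purity of the cells are not given in the sources used here. The tables analysed hold the positions of all regions and the positions of those that the authors placed in an up list or a down list when comparing the doses. They hold 0 columns of values per sample, so that depth is unknown, no spread between replicates could be measured and no call could be retested. Which dose served as the reference is not stated, and the lists are called up and down as deposited.

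Interferon regulatory factors share a DNA-binding domain at the amino terminus that recognises the GAAA repeats of interferon-stimulated response elements. IRF3, IRF5 and IRF7 are activated downstream of nucleic acid sensors and Toll-like receptors, IRF9 is the DNA-binding subunit of the complex formed after type I interferon, and IRF1 and IRF2 compete for the same sites as activator and, largely, repressor. IRF4 and IRF8 bind DNA weakly on their own and act with partners such as PU.1 and BATF. In NK cells, IRF2 is known to be needed for maturation, and IL-15 signals mainly through STAT5.

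The cell label was checked first. Of 10 NK cell marker genes, 9 had an entry among the RefSeq promoter windows used here (250 bases before to 50 after a transcription start), and a region overlapped the window of each of those 9, Ncr1, Klrb1c, Eomes and Tbx21 among them. The tenth, Il2rb, was nearest to 12 regions. Of 16 markers of T cells, B cells, macrophages and erythroid cells, 9 had a window, and 0 of these windows held a region. These genes were together nearest to 19 regions.

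No member of the family had a region in the up list, and 4 regions at 2 genes were in the down list. The up list took 0 of the 99 regions, against 4.21% of all 91266 regions. The down list took 4 of the 99, or 4.04%, against 1.4% of all regions. The share depends on the regions counted. It was 9.52% of the 42 regions within the gene spans, where 1.36% of all regions within a gene span were down, and 2.78% of regions within 50 kb of the genes. The 129 regions of the 10 NK cell marker genes also had a lower up share (0.775%) and a higher down share (6.20%) than all regions. Irf2 had 3 down regions and Irf8 had 1, and all 4 lay inside the gene. Irf1, Irf3, Irf4, Irf5, Irf7 and Irf9, with 30 regions between them, had none in either list. Carrying no listed region is usual, since 79.9% of the protein-coding genes with at least 1 region had none. At least 1 up region was found at 16.1% of these genes, and down regions at 5.39%. Together, 5.61% of all regions were in one or other list. Regions are not replicates of a condition and neighbouring regions are not independent, so these shares are given without a test.

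The DNA just before the start of 4 members is shown because 3 of them held a match to a searched motif and the fourth, Irf3, was the member with no region at its start. Sequences are from RefSeq, build GRCm38.p6, and each covers the 250 bases before the first start, written 5′ to 3′ on the gene's strand. The positions are chr11:53769764-53770013 for Irf1, chr8:46739495-46739744 for Irf2, chr8:120736108-120736357 for Irf8 and chr7:44997398-44997647 for Irf3, all on the plus strand. Capitals mark motif matches.
Irf1 promoter: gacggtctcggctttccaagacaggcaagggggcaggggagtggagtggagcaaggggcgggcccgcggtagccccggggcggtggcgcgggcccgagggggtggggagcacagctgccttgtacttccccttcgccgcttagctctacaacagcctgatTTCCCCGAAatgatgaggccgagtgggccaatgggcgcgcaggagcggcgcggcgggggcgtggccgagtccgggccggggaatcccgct
Irf2 promoter: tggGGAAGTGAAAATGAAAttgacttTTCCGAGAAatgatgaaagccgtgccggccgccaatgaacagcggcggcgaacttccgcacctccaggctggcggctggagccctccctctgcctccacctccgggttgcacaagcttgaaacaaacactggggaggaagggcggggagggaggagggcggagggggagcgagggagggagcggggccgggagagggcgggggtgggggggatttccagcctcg
Irf8 promoter: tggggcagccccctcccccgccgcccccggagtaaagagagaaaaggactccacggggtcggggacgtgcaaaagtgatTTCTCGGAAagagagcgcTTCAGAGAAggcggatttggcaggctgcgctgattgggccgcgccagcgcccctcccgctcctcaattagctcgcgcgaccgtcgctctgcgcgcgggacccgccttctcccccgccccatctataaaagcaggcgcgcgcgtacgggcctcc
Irf3 promoter: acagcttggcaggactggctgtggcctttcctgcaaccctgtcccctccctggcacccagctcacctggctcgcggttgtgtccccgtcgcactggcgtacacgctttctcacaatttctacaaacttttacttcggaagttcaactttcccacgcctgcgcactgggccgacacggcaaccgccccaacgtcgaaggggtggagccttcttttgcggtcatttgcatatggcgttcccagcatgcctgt

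In these letters, 5 motifs were searched on both strands of the whole 300-base window. They were the core of the interferon-stimulated response element (GAAA, any 2 bases, GAAA), the site of an ETS factor beside an IRF (GGAA, any 2 bases, GAAA), the STAT motif TTCNNNGAA, the AP-1 motif TGANTCA and the NF-kB motif (GGGA, any 1 base, TTTCC). The first and the second can overlap, and TTCNNNGAA reads the same on both strands. All 8 members matched the table, with 11 windows between them. Irf2 held GGAAGTGAAA from base -247 to -238 and, overlapping it, GAAAATGAAA from -241 to -232, counted back from the start. Irf2 was the one member with the response element core, which was in 3.44% of the 32851 windows of the table, and with the ETS composite, which was in 2.72%. The STAT motif was present in 3 of the 11 windows, against 8.30% of all windows. Among the 13666 windows that a region overlapped, 6.50% held the STAT motif, 3.13% the response element core and 2.36% the ETS composite. Irf1 held the STAT motif as TTCCCCGAA at -90 to -82, Irf2 as TTCCGAGAA at -224 to -216, and Irf8 as TTCTCGGAA at -171 to -163 and as TTCAGAGAA at -153 to -145. The windows of Irf3, Irf4, Irf5, Irf7 and Irf9 held none of the 5 motifs in the form searched. No member held the AP-1 motif (7.81% of all windows) or the NF-kB motif (0.411%) in that form. Other forms of these motifs were not searched and may be present in the letters shown, so their absence cannot be read from this. These are matches of letters and say nothing about binding.

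At their starts, 7 of the 8 genes were accessible, against 55.8% of the 17492 protein-coding genes with a promoter window. The regions at the starts were wide. Irf2 had the widest of the 99, at 2482 bp (chr8:46739245-46741726), and 0.0373% of all regions were at least as wide. Among the other starts, that of Irf1 had a region of 1209 bp (chr11:53769668-53770876), which covered both annotated starts of the gene. The others measured 1092 bp at Irf7 (chr7:141265599-141266690), 1063 bp at Irf8 (chr8:120735842-120736904), 982 bp at Irf4 (chr13:30748838-30749819), 887 bp at Irf5 (chr6:29526366-29527252) and 850 bp at Irf9 (chr14:55603761-55604610). All 7 exceeded the upper quartile of all regions, 653 bp, and their median of 1063 bp was close to the 958 bp of the 9392 regions at promoter windows in the series. None of the 7 was listed. This carries little, because 0.713% of regions at promoter windows were up and 0.234% were down. Counts by position relative to a promoter were made over regions whose nearest gene had a window in the table.

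**Figure D1:**
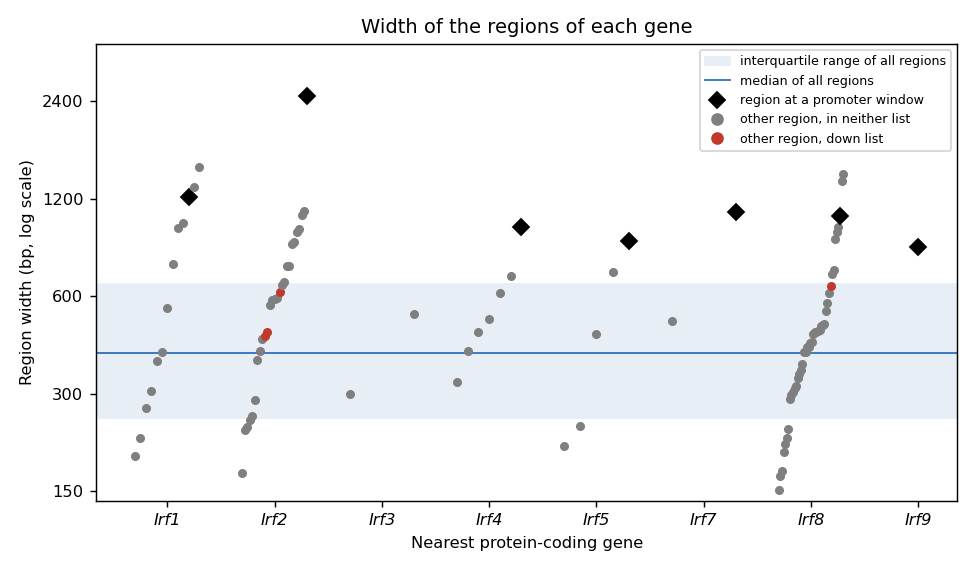
Width in bp, on a log scale, of each of the 99 regions by nearest gene, ordered by width within a gene. Diamonds are the 7 regions at a promoter window (850 to 2482 bp), red points the 4 down regions (451 to 644 bp), the line the median of all regions (400 bp) and the band their interquartile range (252 to 653 bp).

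Irf2, which encodes the factor that counteracts IRF1, spans 107.7 kb (chr8:46739745-46847458) and was nearest to 27 regions, 18 of them inside the gene, 4 upstream and 5 downstream. Of the protein-coding genes with a region, 2.29% had 27 or more. The widths ran from 171 to 2482 bp with a median of 589 bp. The 3 down regions made up 11.1% of the regions of Irf2. The first of them, 616 bp at chr8:46772781-46773396, was centred 33.3 kb after the start, and its neighbours on either side, 5829 and 8652 bp away, were unlisted. The others, 466 bp at chr8:46830571-46831036 and 451 bp at chr8:46832417-46832867, were centred 91.1 and 92.9 kb after the start. They were consecutive regions 1380 bp apart and lay 16422 and 14591 bp before the end of the gene. The next region upstream of this pair was 30435 bp away and the next downstream 4306 bp, both unlisted. The other 15 regions inside Irf2, the one at the start among them, were in neither list. Exons and introns were not annotated here.

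Irf8 encodes a factor best known for directing macrophage, dendritic cell and B cell development. It was nearest to 42 regions, the most of the 8 genes when protein-coding genes alone competed. Of the protein-coding genes with a region, 0.580% had as many or more. When genes of any biotype competed, Irf8 kept 10 regions, fewer than the 21 of Irf2. Among the regions lost, 14 were nearer to the non-coding gene Gm33199 and 6 to Gm26878. The gene Irf8 itself spans 20.3 kb (chr8:120736358-120756694) and held 8 of the 42. Another 5 lay upstream and 29 downstream, where the next protein-coding gene, Foxf1, begins 327.7 kb away. The widths ran from 151 to 1424 bp, with a median of 431.5 bp. The median gap between consecutive regions was 2740 bp. Joined wherever gaps were at most 5 kb, a grouping chosen after the values were seen, they formed a run of 10 regions from chr8:120735842 to 120761276 and a run of 12 from chr8:120783777 to 120808053. The first run covered the start and the gene, and the second lay 27.1 to 50.9 kb beyond the end of the gene. A further 5 regions lay together 64.8 to 75.3 kb beyond it and 6 lay 126.7 to 138.5 kb beyond it. The widest region of Irf8, 1424 bp at chr8:120725044-120726467, was 9891 bp before the gene. None of the 34 regions outside the gene was listed.

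The single down region of Irf8 measured 644 bp at chr8:120737186-120737829. It began 828 bp and ended 1471 bp after the first start, and ended 810 bp before the second annotated start of the gene. The region at the first start, 1063 bp wide, was 281 bp away and unlisted. The promoter window of the second start held no region. On the other side, the next region was 355 bp wide, 2740 bp away and unlisted. No other listed region lay within 254.5 kb of the down region, and the one at that distance was an up region assigned to Gse1.

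**Figure D2:**
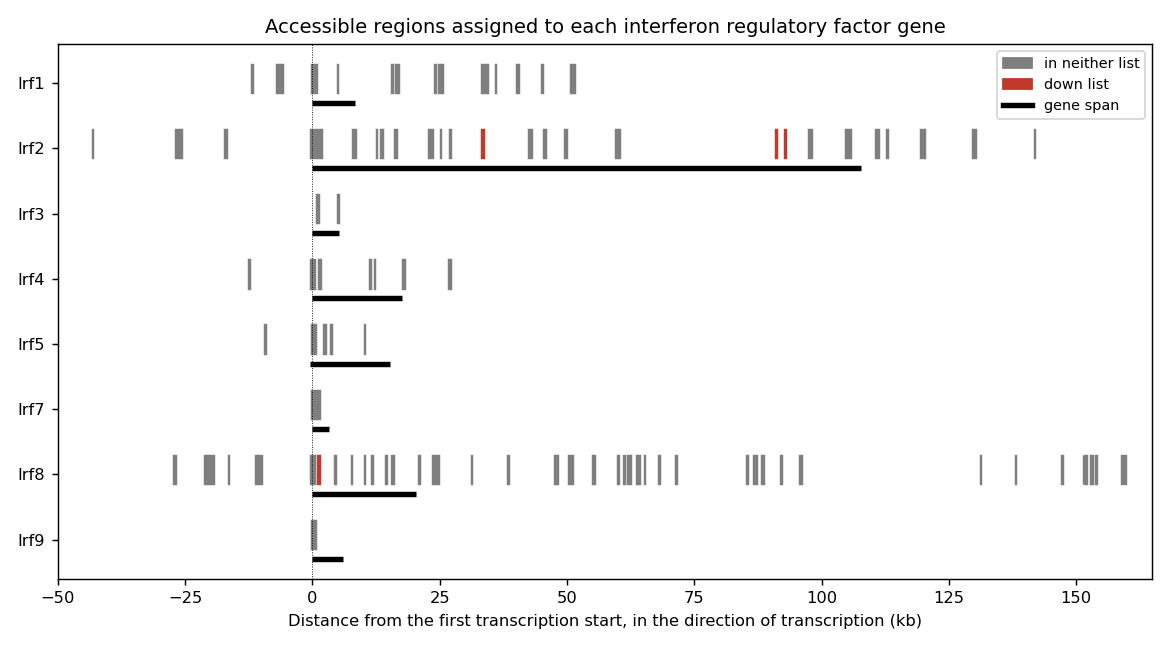
Regions of each gene drawn by distance in kb from the first transcription start, positive in the direction of transcription, with the gene's span as a black bar. The down regions (red) are 3 inside Irf2, at 33.3, 91.1 and 92.9 kb, and 1 inside Irf8, at 1.15 kb, while the 95 unlisted regions are grey and no up region appears.

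Because the number of regions bears on the chance of holding a listed one, Irf2 and Irf8 were set beside the 376 protein-coding genes with at least 27 regions, themselves included. Of these, 60.9% had at least 1 up region, 49.7% at least 1 down region and 23.9% a down region with no up region. At least 3 down regions, as at Irf2, were present at 12.8% of the 376. The number of regions at Irf2 is the lowest that this set allows. Of the 47 other genes with exactly 27 regions, 27 had an up region and 17 a down region. The protein-coding gene with the same counts as Irf2 (27 regions, 0 up, 3 down) was Zfp704, whose regions had a median width of 485 bp. The one with the same counts as Irf8 (42 regions, 0 up, 1 down) was Inpp4b, with a median width of 313.5 bp. For neither member did a second gene share all 3 numbers, out of 47 other genes with 27 regions and 4 with 42.

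Irf1 encodes the activator induced by interferon gamma. It was nearest to 13 regions, and 10.2% of genes with a region had as many or more. When genes of any biotype competed, Irf1 kept 2 regions, because 9 were nearer to the non-coding gene Gm12216 and 2 to Mir7671. The gene is 8.4 kb long (chr11:53770014-53778374) and held 2 regions, the one at its starts and one of 192 bp, while 2 lay upstream and 9 downstream. The downstream regions extended to 42.2 kb from the gene, and included the widest of Irf1, 1501 bp at chr11:53803065-53804565. That region lay between Irf1 and Slc22a5, 24.7 kb beyond Irf1. Upstream, a region of 1299 bp lay 5766 bp from the gene. None of the 13 was listed, and the nearest listed regions of any gene were 634.7 kb (up) and 949.8 kb (down) away.

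Irf4 encodes the partner of BATF and PU.1 that is induced by antigen receptor signals in lymphocytes. The gene (chr13:30749233-30766981) was nearest to 7 regions, 5 inside it or across its ends, 1 upstream and 1 downstream. Their widths ran from 326 bp to the 982 bp of the region at the start. A region of 692 bp at chr13:30766750-30767441 crossed the end of the gene. All 7 were unlisted. The nearest down region, 399 bp at chr13:30820579-30820977, was 53.6 kb beyond the gene and within Exoc2. When regions were given to the nearest transcription start in place of the nearest gene span, that region fell to Irf4, which then had 24 regions with 1 down.

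The remaining 4 genes had between 1 and 5 regions each, where the median over genes with a region was 3. These counts depend on neighbouring genes taking regions: counting every region in the gene or within 50 kb of it, whichever gene was nearest, gave 16 for Irf3, 9 for Irf5, 12 for Irf7 and 16 for Irf9, none of them listed. Irf3 (chr7:44997648-45002848) lies 9 bp from Bcl2l12 and 97 bp from Scaf1, and was nearest to 2 regions of 528 and 299 bp. The wider one, at chr7:44998394-44998921, began 746 bp after the start, and no region overlapped the start itself. The narrower one, at chr7:45002499-45002797, lay 51 bp from the end of the gene. Irf7 (chr7:141263183-141266499, minus strand) had 2, of 1092 bp at the start and of 503 bp (chr7:141264885-141265387) 211 bp beyond it. Irf5 (chr6:29526130-29541869), whose product acts downstream of MyD88, had 5 regions from 206 to 887 bp, 4 of them inside the gene. Irf9 (chr14:55603985-55610030), the DNA-binding subunit of the type I interferon complex, had 1, which covered both annotated starts. None of these 10 regions was listed.

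**Figure D3:**
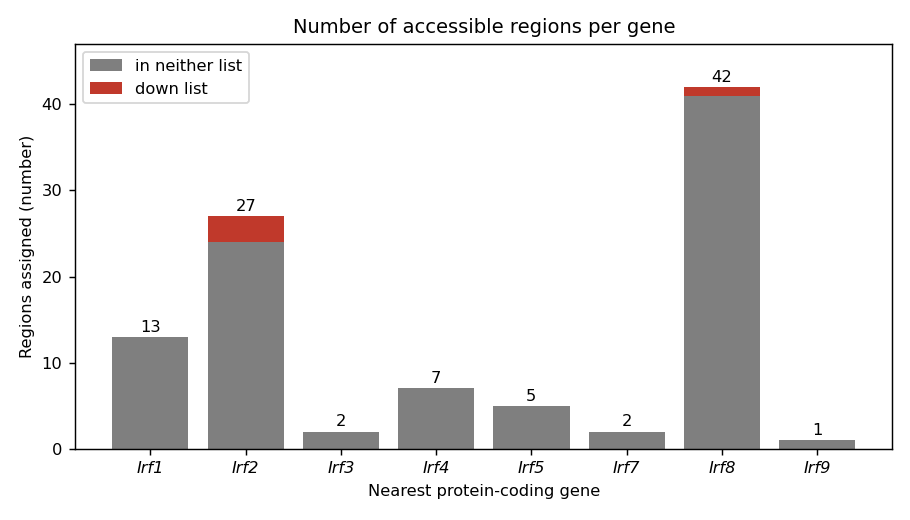
Number of accessible regions assigned to each gene, with the part in the down list in red. Irf8 (42) and Irf2 (27) hold 69 of the 99 regions and all 4 down regions, and the other genes have between 1 and 13 regions.

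By number of regions the order was Irf8, Irf2, Irf1, Irf4, Irf5, Irf3 and Irf7 together, and Irf9. The order rests on regions outside the genes: within the gene span it was Irf2 with 18, Irf8 with 8, Irf4 with 5, Irf5 with 4, Irf1, Irf3 and Irf7 with 2 each and Irf9 with 1. Inside the genes, Irf7 had 6.03 regions per 10 kb, Irf8 3.93, Irf3 3.85, Irf4 2.82, Irf5 2.54, Irf1 2.39, Irf2 1.67 and Irf9 1.65. All 8 were above 0.984 per 10 kb, the median of the 14681 protein-coding genes with a region inside. That median is over genes of all lengths, and Irf7 reached its value with 2 regions in 3.3 kb and Irf9 with 1 region in 6.0 kb. Over the 99 regions, the median width was 468 bp (interquartile range 322 to 731 bp), against 400 bp (252 to 653 bp) for all regions. The 4 down regions, at 451 to 644 bp, lay on either side of the median of the whole down list, 537 bp. By position, 7 of the 99 were at a promoter window, 35 elsewhere in the gene, 10 within 10 kb outside, 33 from 10 to 50 kb and 14 farther away. All 4 down regions were among the 35 inside genes away from promoter windows, or 11.4% of these, where 1.62% of such regions in the series were down and 4.17% were up. None of the 57 regions outside the genes was listed. In the series, the up and down shares were 4.47% and 0.943% within 10 kb of the gene, 5.92% and 1.21% from 10 to 50 kb, and 6.46% and 2.17% beyond 50 kb.

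Distances to listed regions of any gene varied widely. The nearest up region was 87.3 kb from Irf2, 110.1 kb from Irf5, 168 kb from Irf7, 253.7 kb from Irf8, 265.6 kb from Irf9, 333.9 kb from Irf3, 634.7 kb from Irf1 and 790.8 kb from Irf4. For 6 of the 8 genes this was more than the median of 149.6 kb over genes with a region. The nearest down region was inside Irf2 and Irf8, 53.6 kb from Irf4 and 104.2 kb from Irf3. It was 798.4 kb from Irf5, 949.8 kb from Irf1, 1080.9 kb from Irf7 and 1478.6 kb from Irf9, the last 4 being above the median of 771.3 kb.

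**Figure D4:**
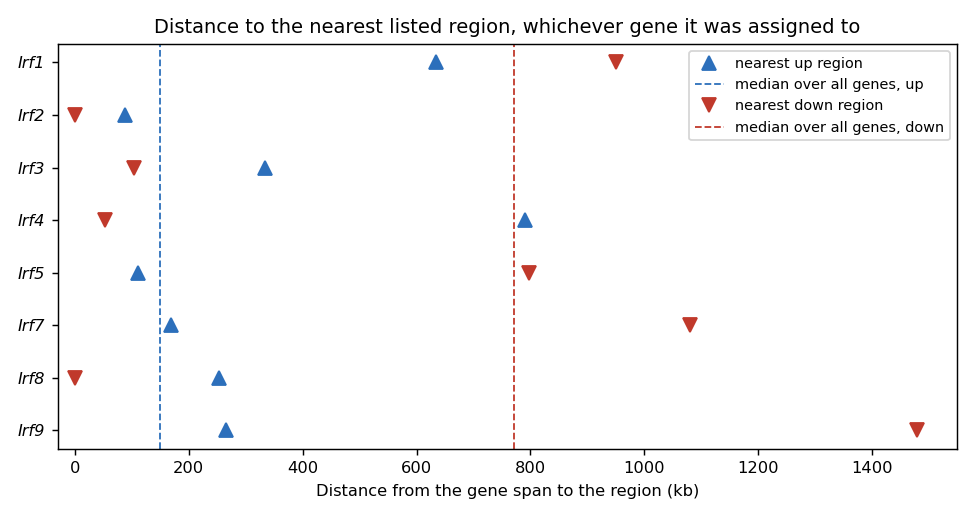
Distance in kb from each gene's span to the nearest up region (blue) and down region (red), whichever gene that region was assigned to. Dashed lines are medians over protein-coding genes with a region (149.6 kb up, 771.3 kb down), and the down symbols of Irf2 and Irf8 are at 0 because the region is inside the gene.

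The other genes of the pathway were taken from a list of 41 that act upstream of, with or beside these factors. They were nearest to 464 regions, of which 16 (3.45%) were up and 18 (3.88%) were down, against 4.21% and 1.4% of all regions. An up region was present at 6 genes, a down region at 10, both at 4 and neither at 29. Over all protein-coding genes with a region, 16.1% had an up region, 5.39% a down region and 79.9% neither. The pathway genes had a median of 6 regions each, against 3 over genes with a region. Among 16 sensors, adaptors and kinases, Tbk1, the kinase that phosphorylates IRF3, had 2 of 11 regions up, while Tlr3 (1 of 4) and Sting1 (1 of 6) each had 1 down region. Of 6 interferon genes and receptors, Ifngr1, a chain of the interferon gamma receptor, had 4 of 26 regions down. Ifng had 4 of 41 up and 2 down. Jak1 had 1 of 40 regions up and 2 down, and Jak2 had 1 of 6 down. Tyk2 and Stat2, which carry type I interferon signals, had 6 and 2 regions, and neither list held any of them.

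Among 11 genes for DNA-binding partners, Ikzf1 had 4 of 35 regions down, Ikzf3 had 1 of 18 down, and Jun had 4 of 44 up and 1 down. Neither list held any region of Spi1, which encodes PU.1, nor of Batf, Batf2 and Batf3. Prdm1 encodes Blimp-1, which recognises sites like those of IRF1 and IRF2, and had 3 of 44 regions up and 1 down. Irf2bp2, a corepressor gene, had 2 of 32 up.

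**Figure D5:**
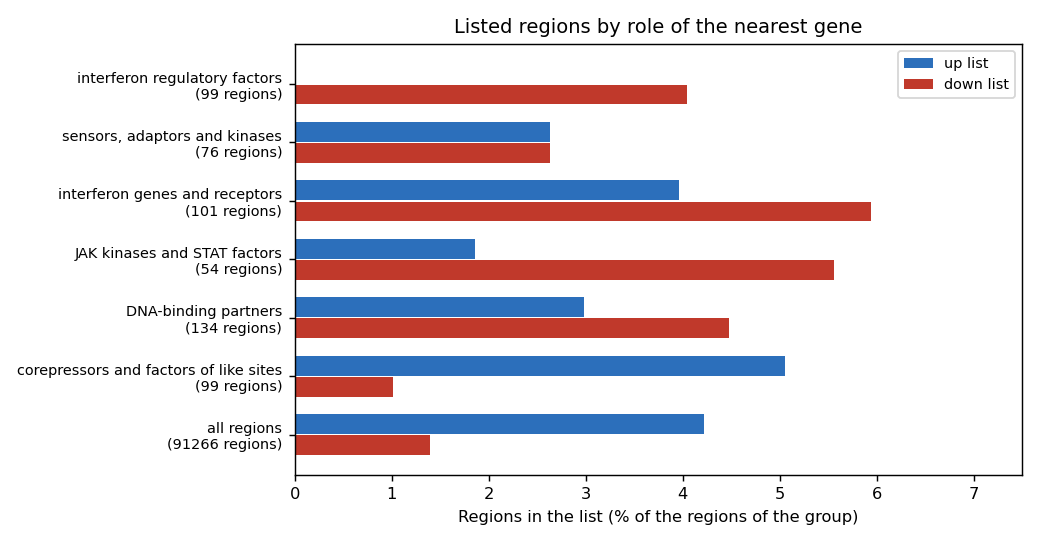
Share of regions in the up list (blue) and the down list (red), in percent, by the role of the nearest gene, with the number of regions in brackets. The interferon regulatory factors have 0% up and 4.04% down, and all regions have 4.21% up and 1.4% down, while the pathway groups hold between 54 and 134 regions each.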

How the data were processed

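ATAC-seq was performed on 4 samples, 2 per dose. The submitters' processing notes name BWA, MACS2, ArchR, HOMER 4.11.1 and the build mm10, without roles or parameters. The values deposited by the authors are positions and region widths in bp, and 2 lists of positions, up and down. Whether replicates were pooled, the differential test, its threshold and its reference dose are not given in the sources used here. Looser or stricter calling by the authors could change the counts given.

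Region starts were raised by 1 to be 1-based, and all 3845 up and 1275 down positions then matched a region exactly. Genes came from a RefSeq table of GRCm38.p6, which has the coordinates of mm10. A region lay at the promoter window of 55.8% of genes, against 5.60% and 5.49% after moving the windows by 100 kb either way. Regions were assigned, counted and searched for motifs with Python 3.11.15 and pandas 2.3.3, and the assignment was tested on simulated regions. The planned count tests of the doses could not be run on positions. Members and lists were chosen with earlier results of these data known. All members, every listed region of a member, its widest region and genes with identical counts were set as those to name. So was the region at each member's start or, where there was none, the region nearest to a gene end. Some genes of the pathway list are not reported here.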

Additional observations from a re-analysis of the deposited data

How the results depend on the processing

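No paired analysis was possible because positions without values per sample cannot be paired, whatever the replicate numbers. The tests of the doses, their other normalization and filter, leaving out a replicate and a stricter threshold on the authors' calls were not run either.

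For 6 counts and shares, 9 alternatives each were run. The number of regions assigned moved by more than 1.5 times under 3 of them: from 99 it became 42 within the gene span, 56 with 10 kb added on each side, and 49 when genes of any biotype competed. The share listed, 4.04%, became 9.52%, 7.14% and 6.12% there, since the number of regions fell more than the number listed, and 2.78% with 50 kb added. Irf8 had more regions than Irf2 in the main rule but fewer under these 3 (8 against 18, 11 against 20 and 10 against 21). With any biotype, a down region inside Irf2 went to the non-coding gene Gm31172. No alternative gave a member an up region. The number of down regions was between 3 and 5, and the nearest transcription start added Irf4 to the members with one; the starts of genes without a promoter window could not compete there. Without depth or scores, how firmly any region was called is unknown.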
